A study of Mus musculus with 8 samples.

Results

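The G2/M and mitosis genes are 36 genes that act in the G2 phase of the cell cycle, in mitosis or in cytokinesis. They were found as the rows of the deposited count matrix that carry their symbols. All 36 are among the 27179 genes of the matrix, and all 36 had enough counts to be tested, as had 13184 genes in all. RNA sequencing was done on natural killer (NK) cells, the innate lymphocytes that kill infected or transformed cells, taken from spleen, bone marrow and blood of C57BL/6 mice and enriched with magnetic beads against CD49b. The 8 libraries form 4 groups of 2: CIS-null (CIS-/-) in vitro, wild type in vitro, CIS-null ex vivo and wild type ex vivo. CIS, encoded by Cish, is an inhibitor of cytokine receptor signalling. No cytokine, medium or culture time is given for the in vitro cells, nor the construct of the Cish allele, the age or sex of the mice or any pooling of animals. Whether both libraries of a group came from different animals or cultures is likewise not given, and p-values then describe the spread between these libraries, which may be technical.

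Entry into mitosis is driven by the kinase Cdk1 bound to a B-type or A-type cyclin. Aurora, Polo-like and Bub kinases then steer spindle assembly and the checkpoint that holds cells until every kinetochore is attached. The anaphase-promoting complex, a ubiquitin ligase, ends mitosis by marking cyclins and other proteins for destruction. Many of these genes are transcribed in late S phase, G2 and mitosis and are low in resting cells, and their promoters often hold a CCAAT box and a cell cycle homology region, an element read by the DREAM and MuvB complexes. NK cells divide when cytokines such as IL-2 or IL-15 reach them, and most NK cells of an unchallenged mouse are not in division.

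Promoter windows are shown because genes of this family are known to share short elements near their start sites. The windows run from 250 bases before to 50 bases after the annotated start, from RefSeq on GRCm38.p6. Matched by gene identifier, 31 of the 36 genes had windows, 33 in all. Not matched were Kif20a, Ccna2, Tpx2, Aurkb and Cdc25c. Both strands were searched for TTTGAA and TTCGAA, forms of the cell cycle homology region, and for CCAAT. Other forms of that region were not searched for, so a window without a match may still hold one. Of the member windows, 81.8% held TTTGAA or TTCGAA, against 19.2% of all 32851 windows. CCAAT was in 81.8% of member windows and in 37.4% of all windows. Both kinds were in 72.7% of member windows and in 7.52% of all windows. The following runs are written 5′ to 3′ on the strand of the gene, with the matches in capitals. A match on the opposite strand reads TTCAAA or ATTGG, and no matches overlap in these runs. Cenpf, Anln, Mki67, Kif23 and Cenpe are shown as the members with the lowest p for genotype in vitro. Ccnb1 and Cdk1 were chosen after their values were seen, as members whose genotype difference in vitro was close to 0.
Cenpf: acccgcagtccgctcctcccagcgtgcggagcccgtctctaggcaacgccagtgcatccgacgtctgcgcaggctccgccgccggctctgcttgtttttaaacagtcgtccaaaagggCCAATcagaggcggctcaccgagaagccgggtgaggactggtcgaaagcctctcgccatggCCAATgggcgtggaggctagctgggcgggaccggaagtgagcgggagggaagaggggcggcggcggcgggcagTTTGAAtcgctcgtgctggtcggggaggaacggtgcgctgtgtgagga
Anln: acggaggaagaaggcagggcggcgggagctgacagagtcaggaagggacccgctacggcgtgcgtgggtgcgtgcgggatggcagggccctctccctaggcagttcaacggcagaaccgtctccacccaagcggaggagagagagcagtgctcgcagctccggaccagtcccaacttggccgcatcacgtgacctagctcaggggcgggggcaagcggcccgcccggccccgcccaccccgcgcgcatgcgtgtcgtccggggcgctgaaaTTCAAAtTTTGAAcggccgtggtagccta
Mki67: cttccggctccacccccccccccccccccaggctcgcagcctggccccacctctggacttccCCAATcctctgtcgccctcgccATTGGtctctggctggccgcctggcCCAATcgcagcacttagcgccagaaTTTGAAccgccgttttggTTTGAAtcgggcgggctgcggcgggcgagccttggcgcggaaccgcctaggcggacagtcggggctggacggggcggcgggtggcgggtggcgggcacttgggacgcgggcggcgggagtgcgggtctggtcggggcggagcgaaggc
Kif23: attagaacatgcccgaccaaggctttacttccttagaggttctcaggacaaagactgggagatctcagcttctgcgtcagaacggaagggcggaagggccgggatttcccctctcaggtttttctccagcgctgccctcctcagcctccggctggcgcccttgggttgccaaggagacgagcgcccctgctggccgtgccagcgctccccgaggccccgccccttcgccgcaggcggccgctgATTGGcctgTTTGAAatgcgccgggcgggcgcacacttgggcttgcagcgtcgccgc
Cenpe: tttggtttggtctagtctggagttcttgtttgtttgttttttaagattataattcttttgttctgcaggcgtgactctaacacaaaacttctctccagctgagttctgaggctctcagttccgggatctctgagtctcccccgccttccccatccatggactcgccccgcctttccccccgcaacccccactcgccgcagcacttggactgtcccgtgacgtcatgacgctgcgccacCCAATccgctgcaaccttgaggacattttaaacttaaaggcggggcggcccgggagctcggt
Ccnb1: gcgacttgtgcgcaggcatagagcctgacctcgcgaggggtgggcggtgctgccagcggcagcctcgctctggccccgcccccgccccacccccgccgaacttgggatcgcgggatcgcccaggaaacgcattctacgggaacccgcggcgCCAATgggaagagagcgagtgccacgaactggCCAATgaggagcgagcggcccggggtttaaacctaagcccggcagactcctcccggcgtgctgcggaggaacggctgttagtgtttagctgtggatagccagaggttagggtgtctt
Cdk1: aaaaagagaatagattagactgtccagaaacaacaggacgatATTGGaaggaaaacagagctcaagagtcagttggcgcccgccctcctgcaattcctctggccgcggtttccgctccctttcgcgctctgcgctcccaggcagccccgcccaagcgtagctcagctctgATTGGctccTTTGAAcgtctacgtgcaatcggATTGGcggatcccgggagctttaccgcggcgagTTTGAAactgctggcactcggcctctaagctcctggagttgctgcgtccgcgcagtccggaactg
These windows lie at chr1:189688037-189688336 (minus strand) for Cenpf, chr9:22389157-22389456 (minus strand) for Anln, chr7:135716330-135716629 (minus strand) for Mki67 and chr9:61946750-61947049 (minus strand) for Kif23. Those of the other genes lie at chr3:135212313-135212612 (plus strand) for Cenpe, chr13:100786437-100786736 (minus strand) for Ccnb1 and chr10:69352863-69353162 (minus strand) for Cdk1. The Cenpf and Kif23 windows each hold TTTGAA from base 3 to base 8 after the start, and Cdk1 holds it from base -15 to -10 and from -71 to -66. The Anln window has TTTGAA on each strand and no CCAAT, while Cenpe and Ccnb1 have CCAAT and no TTTGAA.

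Library totals ran from 21.5 to 28.1 M (1e6) counts. Cish was at 21.2 and 17.2 counts per M after scaling (CPM) in CIS-null in vitro cells, against 220 and 202 CPM in wild-type in vitro cells. Ex vivo it had 1.29 and 2.64 CPM in CIS-null cells, against 9.26 and 9.12 CPM in wild-type cells. All 10 NK markers examined had counts in every library and summed to between 25250 and 58420 CPM. Xist was at 131 and 89.7 CPM in CIS-null in vitro cells, against 0 and 0.0351 CPM in wild-type in vitro cells. Ex vivo it had 0.322 and 0.197 CPM in CIS-null cells, against 120 and 162 CPM in wild-type cells. The Y-linked Eif2s3y was at 0.0386 and 0 CPM in CIS-null in vitro cells, against 135 and 122 CPM in wild-type in vitro cells. Its ex vivo levels were 84.9 and 70.4 CPM in CIS-null cells, against 34.1 and 21.7 CPM in wild-type cells, so both wild-type ex vivo libraries held Xist and Eif2s3y together. Genotype and these sex-linked transcripts therefore cannot be told apart within either state, nor can culture and these transcripts within either genotype. One library stood apart for the mitosis genes. In CIS-null ex vivo cells 34 of the 36 were higher in replicate 2 than in replicate 1, with a median ratio of 1.95, and results that rest on these libraries are given below with and without them.

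The mitosis genes took 0.169% and 0.175% of all counts in CIS-null in vitro cells and 0.268% and 0.255% in wild-type in vitro cells. Ex vivo they took 0.0220% and 0.0412% in CIS-null cells and 0.0347% and 0.0392% in wild-type cells. Summed over the 36 genes, that is 1785 and 1905 CPM in CIS-null in vitro cells against 2611 and 2498 CPM in wild-type in vitro cells, and 217 and 404 CPM in CIS-null ex vivo cells against 338 and 380 CPM in wild-type ex vivo cells. Culture thus separated the libraries most, both CIS-null in vitro libraries lay below both wild-type ones, and the ex vivo libraries of the genotypes overlapped. In bulk RNA, fewer dividing cells and less of these transcripts per dividing cell cannot be told apart.

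Levels per length of transcript (reads per kilobase and per M, RPKM, from the same counts and the deposited gene lengths) spanned a wide range within each group. The median member was at 14.9 RPKM in CIS-null in vitro cells and 22.5 RPKM in wild-type in vitro cells, and at 2.95 RPKM in CIS-null ex vivo cells and 3.15 RPKM in wild-type ex vivo cells. Cenpa, the histone H3 variant of centromeres, led in CIS-null in vitro cells at 114 RPKM, followed by Ube2c, the ubiquitin-conjugating enzyme of the anaphase-promoting complex, at 94.3 RPKM. In wild-type in vitro cells Ube2c was first at 106 RPKM and Cenpa next at 101 RPKM. Cenpf, a large kinetochore protein, was lowest in both, at 0.390 RPKM in CIS-null in vitro cells and 1.60 RPKM in wild-type in vitro cells. Ex vivo Cenpa led in both genotypes, at 16.7 RPKM in CIS-null and 15.96 RPKM in wild-type cells.

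**Figure D1:**
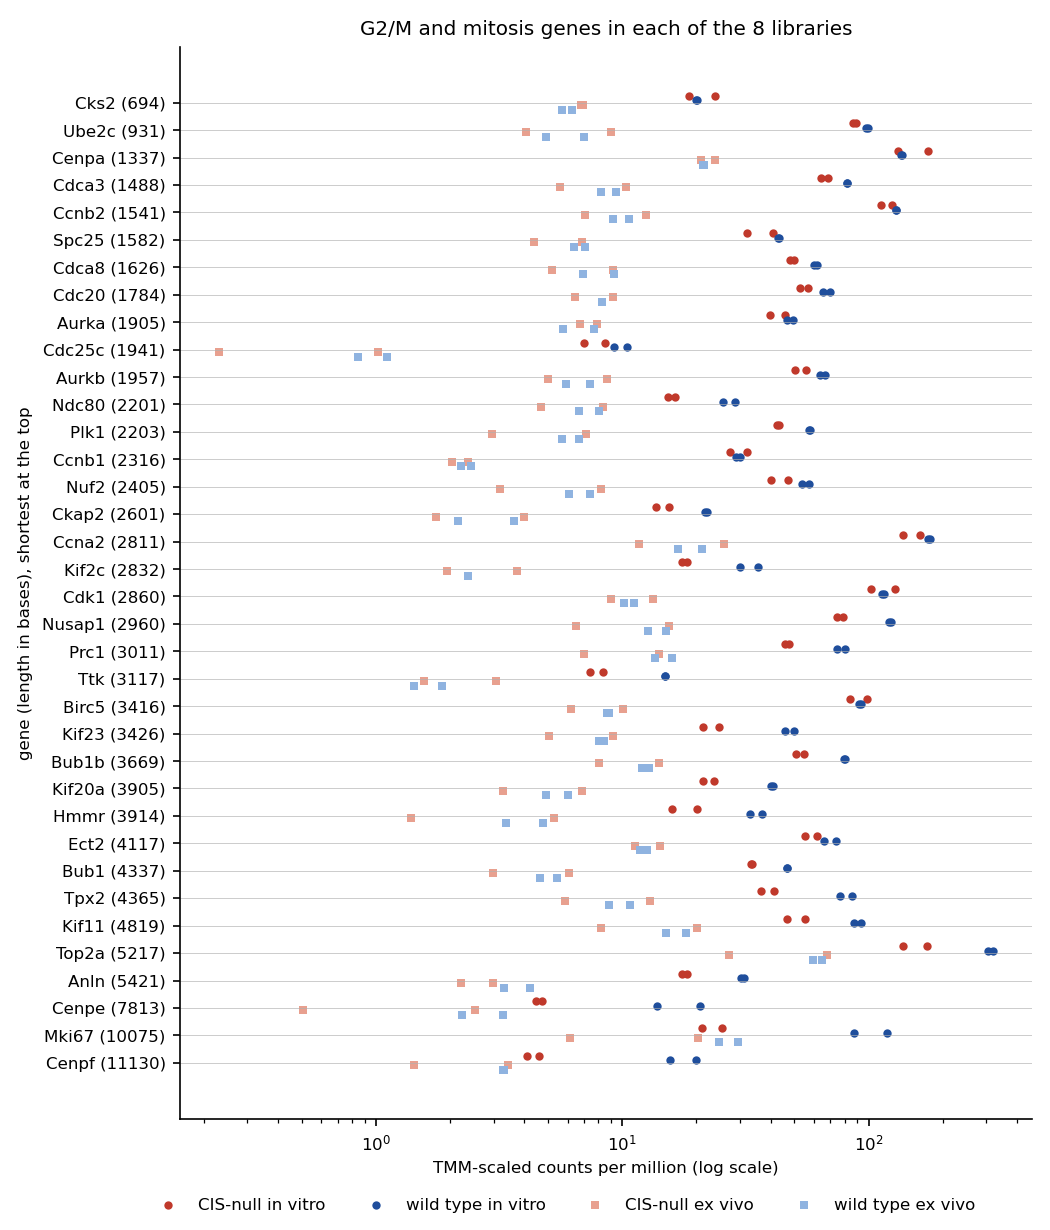
Scaled counts per M (log axis) of each of the 36 genes in each of the 8 libraries, with genes ordered by length in bases from Cks2 (694) at the top to Cenpf (11130) at the bottom; circles are in vitro and squares ex vivo libraries, red tones CIS-null and blue tones wild type. Circles lie to the right of squares for most genes, and the red circles fall further behind the blue ones towards the bottom, where Cenpe, Mki67 and Cenpf lie.

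Culture was the difference that all 36 genes shared in wild-type cells. All 36 were higher in vitro than ex vivo (edgeR quasi-likelihood test, adjusted p under 0.05 over all tested genes), where 32.1% of all tested genes were higher. The median log2 fold change was 3.03, against -0.0025 for all tested genes. The range ran from 1.74 (3.35-fold) for Cks2, a small subunit of Cdk1 complexes, to 4.05 (16.6-fold) for Ube2c. Every member lay above the trend of all genes with length, and all 36 passed with that trend removed, where 34.8% of all tested genes were higher. The highest edgeR adjusted p was 0.00333, for Mki67. In each alternative tried, all 36 passed.

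In CIS-null cells 34 of the 36 genes were higher in vitro than ex vivo, where 34.8% of all tested genes were higher, with a median log2 fold change of 2.67. Ccnb1, the B-type cyclin that starts mitosis with Cdk1, had the highest value at 3.75 (SE 0.151, edgeR adjusted p = 3.96e-07). The 2 genes that did not pass were Mki67 at 0.80 (SE 0.424, edgeR adjusted p = 0.121) and Cenpf at 0.82 (SE 0.335, edgeR adjusted p = 0.0531). With the length trend removed all 36 passed, where 37.3% of all tested genes did, with Mki67 at 1.71 and Cenpf at 1.77. Both values depended on the ex vivo library kept: Mki67 was at 0.19 without CIS-null ex vivo replicate 1 (edgeR adjusted p = 0.440) and at 1.93 without replicate 2 (edgeR adjusted p = 0.000294), and Cenpf at 0.34 (edgeR adjusted p = 0.201) and 1.60 (edgeR adjusted p = 0.00103). The median over the 36 was 2.36 without replicate 1 and 3.07 without replicate 2.

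**Figure D2:**
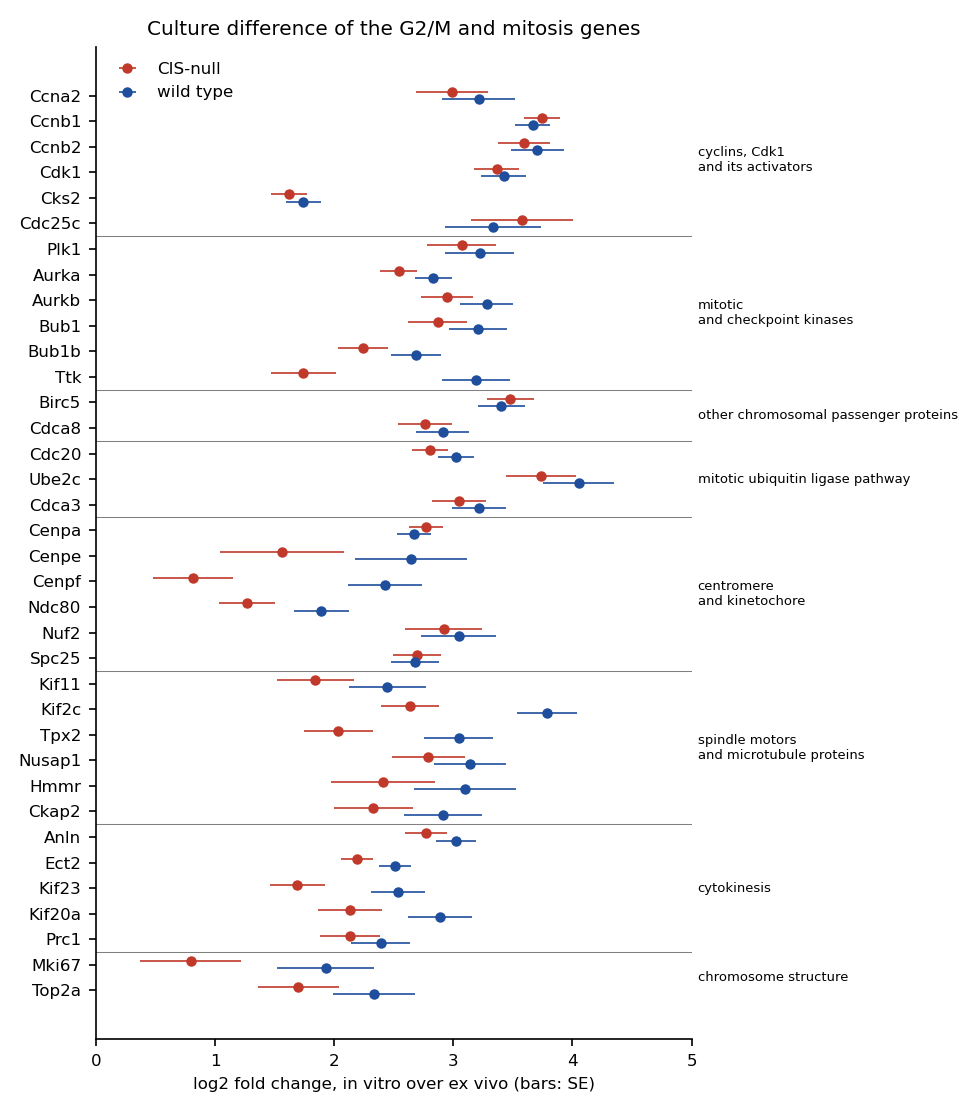
Log2 fold change in vitro over ex vivo for each gene, grouped by role, in CIS-null (red, upper point of each pair) and wild-type cells (blue); bars are standard errors of the edgeR fit with 2 libraries per group. All values lie above 0, from 1.74 (Cks2) to 4.05 (Ube2c) in wild-type cells and from 0.80 (Mki67) to 3.75 (Ccnb1) in CIS-null cells.

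Loss of CIS in culture went with lower levels of a subset of these genes. In CIS-null in vitro cells 11 of the 36 (30.6%) were lower than in wild-type in vitro cells and 0 were higher, beside 14.6% of all tested genes lower and 11% higher. The 11 were the checkpoint kinases Bub1b and Ttk, the kinetochore proteins Cenpe, Cenpf and Ndc80, the spindle proteins Kif2c and Tpx2, the cytokinesis proteins Anln, Kif23 and Kif20a, and Mki67. The median log2 fold change of all 36 was -0.45, against 0 for all tested genes, and 32 of the 36 values were negative, beside 6574 of the 13184 tested genes. Both CIS-null libraries lay below both wild-type libraries for 31 genes (86.1%), where 35.1% of all tested genes did so, and above them for 0, where 33.7% did so. The 5 whose libraries overlapped were Cks2, Cenpa, Ccnb1, Cdk1 and Birc5. At an unadjusted p under 0.05 there were 16 of the 36, all lower, beside 5292 of the 13184 tested genes in either direction.

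The number called depended on single libraries. It was 0 without CIS-null in vitro replicate 2 and 5 without replicate 1, of which 4 were lower and Cenpa higher. It was 1 without wild-type in vitro replicate 1 (Cenpf) and 5 without replicate 2. It was 21 without either CIS-null ex vivo library, 7 without wild-type ex vivo replicate 1 and 6 without replicate 2. The share of all tested genes called in either direction was 25.6% with all libraries and ran from 3.7% without CIS-null in vitro replicate 2 to 31.7% without CIS-null ex vivo replicate 1. That share also fell each time a wild-type library of either state was left out, as the number of members called did. Without CIS-null in vitro replicate 1 it rose above the share with all libraries, while fewer members were called. The median over the 36 genes stayed between -0.49 and -0.42 in these 8 fits. Markers of NK cells and of other cells also moved with genotype in vitro. The 10 NK markers summed to 52460 and 58420 CPM in CIS-null cells, against 32880 and 30870 CPM in wild-type cells, with 3 called higher and 2 lower. Most of this sum came from Gzma and Gzmb, which with Prf1 were those called higher, and Eomes and Itga2 were called lower. Of the NK markers not called, Ncr1, Klrb1c, Klrk1 and Tbx21 had negative values and Il2rb a positive one. The 10 T cell markers summed to 966 and 959 CPM in CIS-null cells, against 273 and 233 CPM in wild-type cells, with 6 of 10 called higher. Nearly all of the T cell sum came from Cd3g, Cd3d, Cd28 and Cd3e. The 6 called higher were Cd3d, Cd3e, Cd3g, Cd8a, Cd5 and Trac. Trac was at 32.15 and 26.75 CPM in CIS-null cells, against 12.72 and 6.358 CPM in wild-type cells. Cd8a was at 9.02 and 6.207 CPM in CIS-null cells, against 1.564 and 0.1405 CPM in wild-type cells. Cd5 was at 1.041 and 1.001 CPM in CIS-null cells, against 0.139 and 0 CPM in wild-type cells. Of those not called, in the CIS-null cells Cd4 was at 0 and 0.0401 CPM and Cd6 at 0.231 and 0.160 CPM, and Cd8b1 did not pass 1.04 CPM. Of 9 monocyte and macrophage markers 2 were called higher, Cd14 and Ly6c2, and at least 4 of the 9 were at 0 in each in vitro library. Cd14 did not pass 3.04 CPM in vitro, and Ly6c2 was at 94.1 and 124.5 CPM in CIS-null cells against 29.7 and 26.1 CPM in wild-type cells. The 9 summed to 1217 and 1507 CPM in CIS-null cells against 1757 and 1684 CPM in wild-type cells. Most of that sum came from Ccr2, which was at -0.44 in log2 and not called (edgeR adjusted p = 0.0716). Of 8 basophil and mast cell markers 1 was called higher, Mcpt8, and 1 lower, Kit. They summed to 471.1 and 434.5 CPM in CIS-null cells against 774.7 and 989.2 CPM in wild-type cells, most of it from Kit. Fcer1a, Ms4a2 and Prss34 were at 0 in each in vitro library. The progenitor markers summed to 425 and 367 CPM in CIS-null cells against 752 and 959 CPM in wild-type cells, nearly all from Kit. B cell markers were at 1.04 CPM or below in all 4 in vitro libraries, with Ms4a1 and Pax5 at 0. The part of all these transcripts in the result was not tested.

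The genotype difference in vitro varied with gene length, over all tested genes and over the mitosis genes. Over all 13184 tested genes the Spearman correlation of log2 fold change with length was -0.461, and over the 36 it was -0.747. These points share libraries and depth. Members ran from 694 to 11130 bases, with a median of 2846, against 2682.5 for all tested genes. The called genes had a median length of 3905 bases and the others 2316 bases.

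The members were also set beside genes of like length. In each of 5 equal bands of gene length, the share of members called lower was set beside the share of all tested genes. Up to 1394 bases it was 0 of 3 members, beside 1.33% of all genes. From 1395 to 2228 bases it was 1 of 10, beside 3.6%, and from 2229 to 3161 bases 2 of 9, beside 9.64%. From 3162 to 4535 bases it was 4 of 8, beside 19.7%, and from 4536 bases 4 of 6, beside 38.9%. Weighted to the members' lengths, 14.4% of all tested genes were lower, against 30.6% of members. With each library's trend of counts with length removed, 9 of 36 (25.0%) were lower, beside 10.3% of all tested genes, and the median was -0.46. Bub1b (edgeR adjusted p = 0.0946) and Kif20a (edgeR adjusted p = 0.0524) no longer passed. The correlation with length over the 36 was then -0.495, against -0.011 over all genes. In the fit as counted, 34 of the 36 values lay below the length trend, all but Cdk1 and Birc5.

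**Figure D3:**
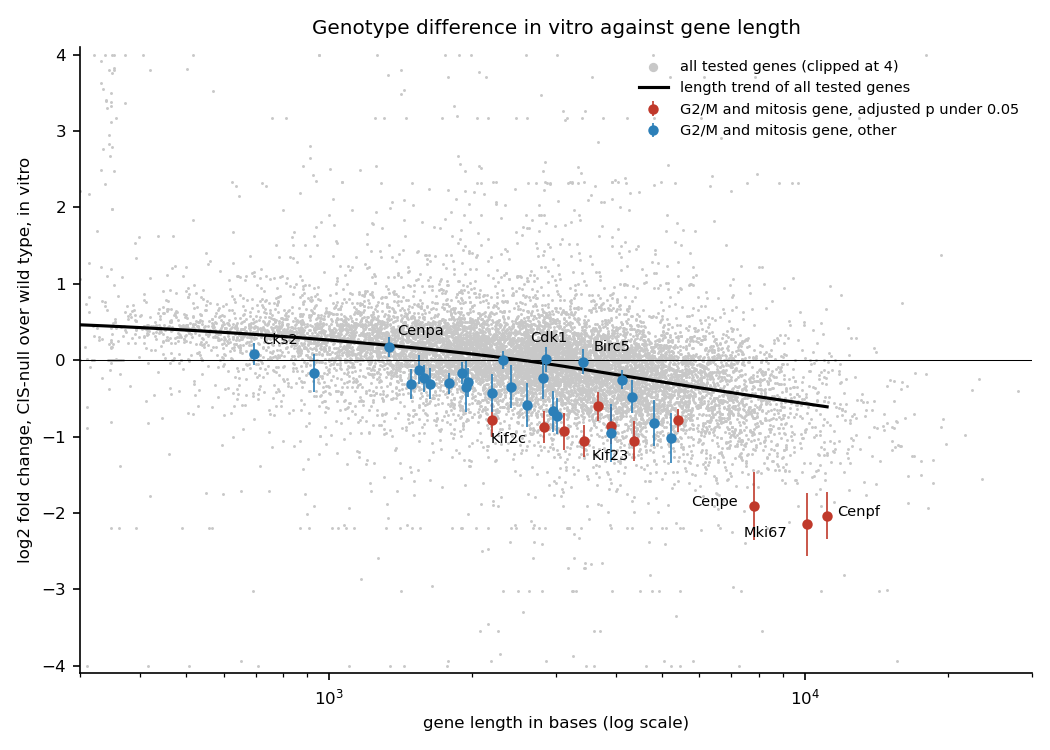
Log2 fold change of CIS-null over wild-type cells in vitro against gene length in bases (log axis); grey points are all tested genes within the axis, values beyond 4 being drawn at 4, the black line is their length trend, and coloured points with standard errors are the 36 genes, red where the edgeR adjusted p was under 0.05. 34 of the 36 points lie below the line, and Cenpe, Mki67 and Cenpf, the 3 longest, lie lowest at -1.91, -2.15 and -2.03.

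**Figure D4:**
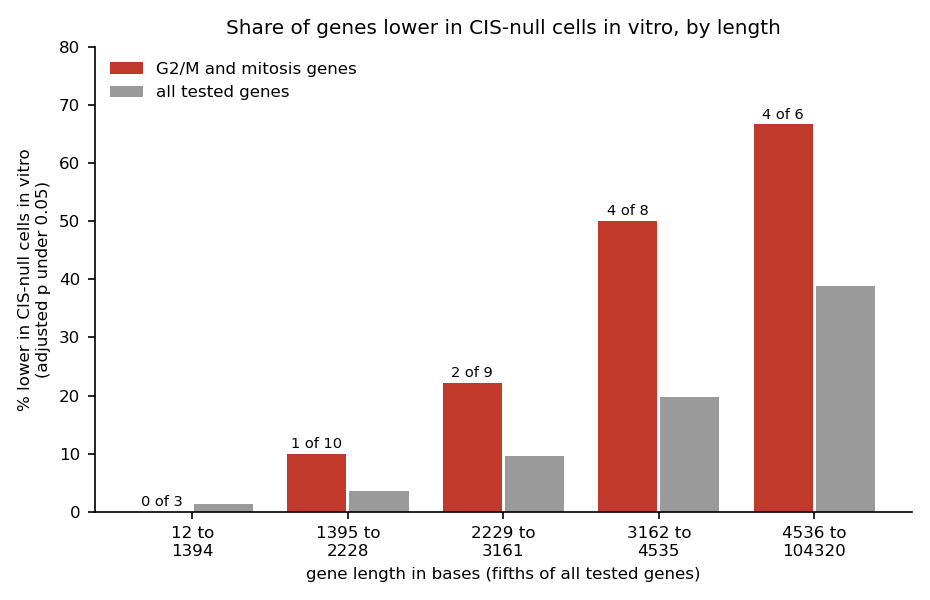
Percent of genes lower in CIS-null than in wild-type cells in vitro (edgeR adjusted p under 0.05) in each of 5 bands of gene length, for the 36 genes (red, with counts) and all 13184 tested genes (grey). Both rise with length, to 4 of 6 members and 38.9% of all genes in the band of the longest genes.

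Some members of nearly the same length had different values and others had close ones. Birc5, the survivin subunit of the chromosomal passenger complex, has 3416 bases and a genotype value in vitro of -0.02 (log2), and Kif23, a kinesin of the central spindle, has 3426 bases and -1.06. All pairs named here were chosen after their values were seen. The ratio of Kif23 to Birc5 was 0.295 and 0.215 in CIS-null in vitro cells, against 0.534 and 0.501 in wild-type in vitro cells, without overlap. Cdk1 has 2860 bases and was at 0.01, while Kif2c, a kinesin that shortens microtubules, has 2832 bases and was at -0.87. The length trend itself differed by 0.00126 between the first pair and 0.00392 between the second pair (log2). By contrast Kif20a and Hmmr, of 3905 and 3914 bases, were at -0.86 and -0.95, Nusap1 and Prc1, of 2960 and 3011 bases, were at -0.67 and -0.73, and Cdc25c and Aurkb, of 1941 and 1957 bases, were at -0.34 and -0.29.

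Of the cyclins, Cdk1 and its activators, 0 of 6 were called in either direction in vitro, and their median log2 fold change was -0.06. Ccna2, the A-type cyclin, had 138 and 161 CPM in CIS-null in vitro cells, against 177 and 175 CPM in wild-type in vitro cells. Ex vivo it had 11.7 and 25.8 CPM in CIS-null cells and 16.8 and 21.1 CPM in wild-type cells. Its in vitro libraries did not overlap, but its log2 fold change of -0.23 (SE 0.274) was smaller than its error (edgeR adjusted p = 0.562). Cdc25c, a phosphatase that activates Cdk1, had 7.02 and 8.53 CPM in CIS-null in vitro cells, against 10.5 and 9.24 CPM in wild-type in vitro cells. Its ex vivo CPM, the lowest of the 36 in each library, were 0.230 and 1.02 in CIS-null cells and 0.842 and 1.11 in wild-type cells. Its log2 fold change in vitro was -0.34 (SE 0.331, edgeR adjusted p = 0.474). The remaining members lay between -0.13 for Ccnb2, the other B-type cyclin, and 0.08 for Cks2. Ccnb1 was at 0.00 (SE 0.122) and Cdk1 at 0.01 (SE 0.165).

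Among the mitotic and checkpoint kinases, 2 of 6 were lower in CIS-null in vitro cells, and the group median was -0.45. Ttk, the kinase that starts the spindle checkpoint at unattached kinetochores, had 8.33 and 7.37 CPM in CIS-null in vitro cells, against 14.95 and 14.96 CPM in wild-type in vitro cells. Both wild-type libraries agree closely and both CIS-null libraries lie well below them. The genotype difference in log2 was -0.93 (SE 0.244, edgeR adjusted p = 0.0274), and it passed in 12 of 19 alternatives. Ex vivo the order was not kept, with 1.57 and 3.07 CPM in CIS-null cells and 1.85 and 1.42 CPM in wild-type cells. Bub1b, the BubR1 protein that holds back the anaphase-promoting complex, had 50.9 and 54.4 CPM in CIS-null in vitro cells, against 80.5 and 79.8 CPM in wild-type in vitro cells. This corresponds to a log2 value of -0.61 (SE 0.192), just past the threshold (edgeR adjusted p = 0.0497), and it passed in 7 of 19 alternatives. Ex vivo it had 8.01 and 14.1 CPM in CIS-null cells and 12.0 and 12.8 CPM in wild-type cells, which overlap. The other kinases were not called: Bub1 at -0.48, Plk1 at -0.43, Aurkb at -0.29 and Aurka at -0.17.

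The other chromosomal passenger proteins, which bring Aurkb to centromeres and the midzone, had 0 of 2 called. Cdca8, also known as borealin, had 50.0 and 48.1 CPM in CIS-null in vitro cells, against 61.6 and 59.8 CPM in wild-type in vitro cells. The groups did not overlap, and the log2 fold change was -0.31 (SE 0.200, edgeR adjusted p = 0.288). Ex vivo Cdca8 had 5.20 and 9.13 CPM in CIS-null cells and 9.26 and 6.91 CPM in wild-type cells. Birc5 had 83.8 and 98.9 CPM in CIS-null in vitro cells, against 93.4 and 91.7 CPM in wild-type in vitro cells. The CIS-null libraries lay on either side of the wild-type ones, at a log2 value of -0.02 (SE 0.168, edgeR adjusted p = 0.960). Ex vivo Birc5 had 6.22 and 10.1 CPM in CIS-null cells and 8.79 and 8.68 CPM in wild-type cells.

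The mitotic ubiquitin ligase pathway had 0 of 3 called and a median of -0.30. Cdc20, the activator of the anaphase-promoting complex that the spindle checkpoint inhibits, had 52.6 and 56.7 CPM in CIS-null in vitro cells, against 65.3 and 69.4 CPM in wild-type in vitro cells. The fitted log2 difference was -0.30 (SE 0.134, edgeR adjusted p = 0.128). Ex vivo Cdc20 had 6.45 and 9.13 CPM in CIS-null cells and 8.25 and 8.29 CPM in wild-type cells. Cdca3, which promotes destruction of the mitosis inhibitor Wee1, had 64.0 and 68.3 CPM in CIS-null in vitro cells, against 81.8 and 82.1 CPM in wild-type in vitro cells. Both genes thus had non-overlapping libraries in vitro and a difference that did not pass. Cdca3 was at -0.31 (SE 0.198, edgeR adjusted p = 0.279), and Ube2c at -0.17. Ex vivo Cdca3 had 5.57 and 10.3 CPM in CIS-null cells and 8.21 and 9.39 CPM in wild-type cells.

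Centromere and kinetochore genes had 3 of 6 lower in CIS-null in vitro cells, and a wide spread of values. Cenpf had 4.59 and 4.08 CPM in CIS-null in vitro cells, against 19.9 and 15.7 CPM in wild-type in vitro cells. That is a 4.095-fold lower level, at a log2 value of -2.03 (SE 0.305, edgeR adjusted p = 0.00554), or -1.42 with the length trend removed (edgeR adjusted p = 0.00508). Cenpf passed in 18 of 19 alternatives, more than any other member, and was lost without CIS-null in vitro replicate 2 (edgeR adjusted p = 0.0574). Ex vivo it had 1.43 and 3.42 CPM in CIS-null cells and 3.28 and 3.32 CPM in wild-type cells. Cenpe, the kinesin that moves chromosomes to the spindle equator, had 4.47 and 4.73 CPM in CIS-null in vitro cells, against 20.8 and 13.8 CPM in wild-type in vitro cells. The wild-type libraries differed by more than the CIS-null ones, and the groups lay far apart. On the log2 scale its fold change was -1.91 (SE 0.450, edgeR adjusted p = 0.0188), or -1.43 with the length trend removed (edgeR adjusted p = 0.0332), and it passed in 15 of 19 alternatives. Ex vivo Cenpe had 0.507 and 2.52 CPM in CIS-null cells and 2.23 and 3.28 CPM in wild-type cells. Ndc80, a subunit of the complex that binds microtubules at kinetochores, was the shortest called member at 2201 bases, at a log2 value of -0.78 (SE 0.218, edgeR adjusted p = 0.0331). Its partners in that complex, Nuf2 at -0.35 and Spc25 at -0.24, were not called. Cenpa had the highest value of all 36, at 0.17 (SE 0.132, edgeR adjusted p = 0.369).

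Spindle motors and microtubule proteins had 2 of 6 lower and a median of -0.85. An unadjusted p under 0.05 was found for 5 of 6, beside 5292 of the 13184 tested genes in either direction. Kif2c had 18.3 and 17.5 CPM in CIS-null in vitro cells, against 35.4 and 30.0 CPM in wild-type in vitro cells. The genotype difference in log2 was -0.87 (SE 0.209, edgeR adjusted p = 0.0202), and it passed in 14 of 19 alternatives. Ex vivo the CIS-null libraries lay on either side of the wild-type ones, with 1.93 and 3.74 CPM in CIS-null cells and 2.36 and 2.37 CPM in wild-type cells. Tpx2, which activates Aurora A kinase and nucleates spindle microtubules, had 41.2 and 36.7 CPM in CIS-null in vitro cells, against 85.3 and 76.8 CPM in wild-type in vitro cells. The CIS-null level was 2.08-fold lower, at a log2 value of -1.06 (SE 0.263, edgeR adjusted p = 0.0230), and it passed in 13 of 19 alternatives. Ex vivo Tpx2 had 5.85 and 13.0 CPM in CIS-null cells and 8.84 and 10.8 CPM in wild-type cells, with overlap. Not called were Hmmr at -0.95, Kif11, the motor that pushes spindle poles apart, at -0.83, Nusap1 at -0.67 and Ckap2 at -0.59. All 4 had CIS-null libraries below the wild-type ones in vitro.

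Cytokinesis genes had 3 of 5 lower in CIS-null in vitro cells, with a median of -0.79. Anln, the anillin scaffold of the contractile ring, had 18.2 and 17.5 CPM in CIS-null in vitro cells, against 31.2 and 30.3 CPM in wild-type in vitro cells. Replicates agreed closely in both groups. This corresponds to a log2 value of -0.79 (SE 0.148, edgeR adjusted p = 0.00959), or -0.47 with the length trend removed (edgeR adjusted p = 0.0342), and it passed in 16 of 19 alternatives. Ex vivo Anln had 2.21 and 2.99 CPM in CIS-null cells and 3.32 and 4.22 CPM in wild-type cells, and the groups did not overlap. Kif23 had 24.7 and 21.3 CPM in CIS-null in vitro cells, against 49.8 and 45.9 CPM in wild-type in vitro cells. Its level was 2.08-fold lower, at a log2 value of -1.06 (SE 0.210, edgeR adjusted p = 0.0112), or -0.94 with the length trend removed (edgeR adjusted p = 0.01000), and it passed in 16 of 19 alternatives. Ex vivo Kif23 had 5.02 and 9.13 CPM in CIS-null cells and 8.08 and 8.45 CPM in wild-type cells. Kif20a, a kinesin that brings the passenger complex to the midzone, was at -0.86 (SE 0.241, edgeR adjusted p = 0.0342). Prc1, which bundles midzone microtubules, was at -0.73 and narrowly missed the threshold (edgeR adjusted p = 0.0502). Ect2, the activator of RhoA in the furrow, was at -0.26, near the length trend of -0.20 at its 4117 bases.

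Of the chromosome structure genes, Mki67, the proliferation antigen that coats mitotic chromosomes, had the largest genotype difference of all 36. It had 25.5 and 21.0 CPM in CIS-null in vitro cells, against 118 and 87.5 CPM in wild-type in vitro cells. That is a 4.43-fold lower level, at a log2 value of -2.15 (SE 0.412, edgeR adjusted p = 0.0100), or -1.58 with the length trend removed (edgeR adjusted p = 0.0102), and it passed in 16 of 19 alternatives. Ex vivo Mki67 had 6.13 and 20.4 CPM in CIS-null cells and 24.7 and 29.4 CPM in wild-type cells. Its CIS-null in vitro libraries thus overlapped its wild-type ex vivo libraries, and CIS-null ex vivo replicate 1 was the lowest of all 8. Top2a, the topoisomerase that untangles sister chromatids, had 172 and 137 CPM in CIS-null in vitro cells, against 321 and 304 CPM in wild-type in vitro cells. The fitted log2 difference was -1.01 (SE 0.328), which did not pass (edgeR adjusted p = 0.0525), and it passed in 7 of 19 alternatives. Ex vivo Top2a had 27.1 and 67.9 CPM in CIS-null cells and 59.6 and 64.5 CPM in wild-type cells.

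Ex vivo, none of the differences between genotypes passed the test. Of the 36 genes 0 were called by edgeR, DESeq2 or limma-voom, where edgeR called 0.0607% of all tested genes. The median log2 fold change was -0.14, against 0.02 for all tested genes, and 26 of the 36 values were negative, beside 5925 of the 13184 tested genes. An unadjusted p under 0.05 was found for 2 of the 36, beside 844 of the 13184 tested genes. These 2 were Anln at -0.53 (edgeR adjusted p = 0.731) and Mki67 at -1.01 (edgeR adjusted p = 0.766). They were also the only genes of the 36 whose CIS-null libraries both lay below both wild-type libraries (5.56%, where 18.4% of all tested genes did so), and Cks2 was the only one above, where 22% did so. The values turned on which CIS-null ex vivo library was kept. Without replicate 1 the median was 0.20 with 0 called, and without replicate 2 it was -0.68 with 4 lower, Nusap1, Prc1, Mki67 and Top2a, where 0.301% of all tested genes were called.

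**Figure D5:**
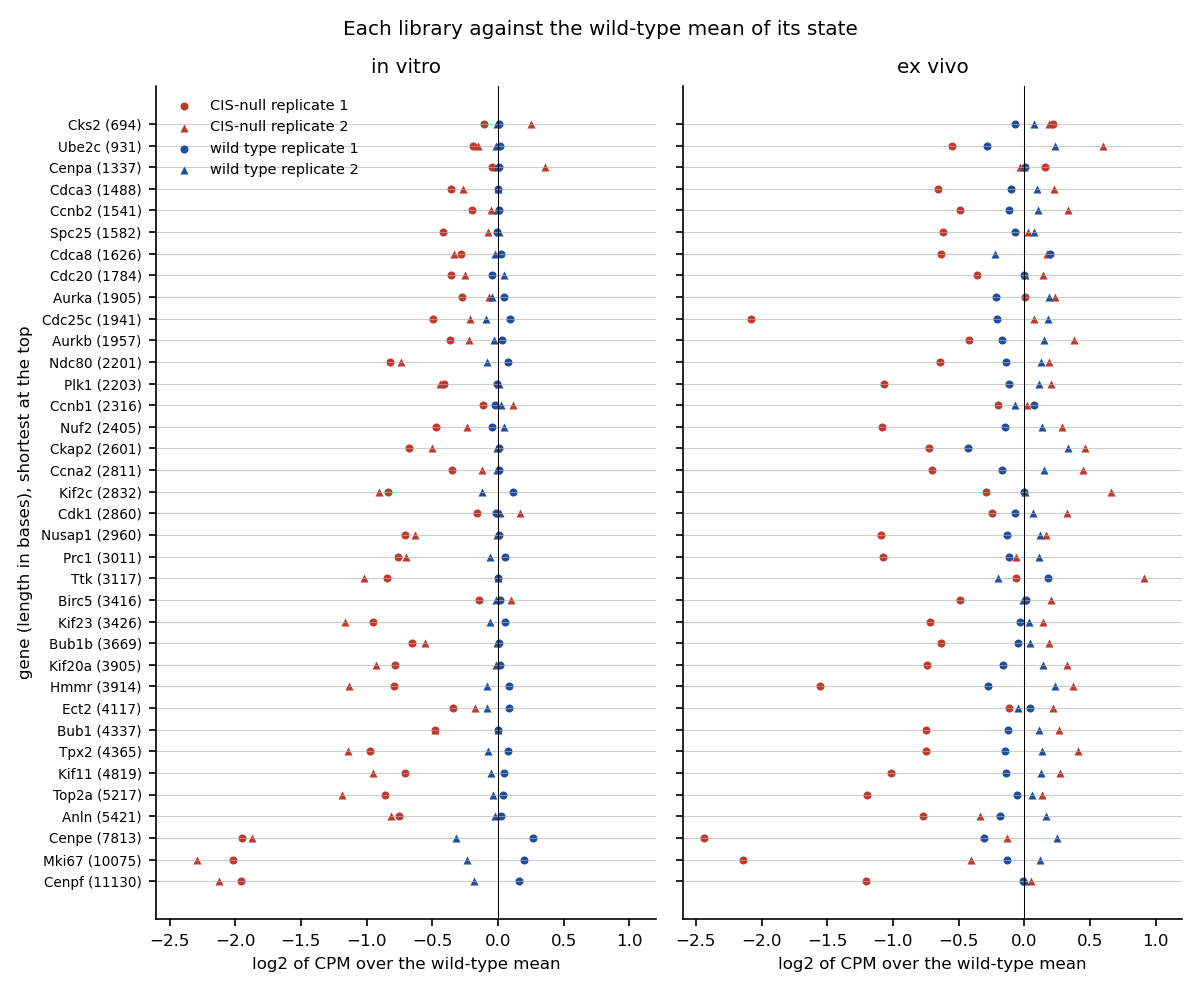
Log2 ratio of each library's CPM to the wild-type mean of the same state, in vitro (left) and ex vivo (right), with genes ordered by length; red is CIS-null and blue wild type, circles replicate 1 and triangles replicate 2. In vitro both red points lie left of both blue points for 31 genes, while ex vivo CIS-null replicate 1 lies left of replicate 2 for 34 genes and the groups overlap for 33.

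The ratio between replicates of a group was widest in CIS-null ex vivo cells. There the log2 ratio of replicate 2 to replicate 1 had a median of 0.96 and ran from -0.19 to 2.31, and the 2 genes not higher in replicate 2 were Cks2 and Cenpa, both among the 3 shortest. In wild-type ex vivo cells the median was 0.23, with 30 genes higher in replicate 2. In vitro it was 0.08 in CIS-null cells and -0.03 in wild-type cells. These ratios also moved with length over the 36 genes, with a Spearman correlation of 0.448 in CIS-null ex vivo cells, -0.622 in CIS-null in vitro cells, -0.501 in wild-type in vitro cells and 0.0764 in wild-type ex vivo cells. Over all tested genes the correlations were 0.37 in CIS-null ex vivo, -0.451 in CIS-null in vitro, -0.0197 in wild-type in vitro and 0.11 in wild-type ex vivo cells. The value between the CIS-null in vitro replicates was thus close to the -0.461 of the genotype difference in vitro. A rank correlation does not give the size of either. Over the 36 genes the log2 ratios between the CIS-null in vitro replicates ran from -0.35 to 0.40, and the genotype values in vitro from -2.15 to 0.17. Whether the length trend between replicates has a part in the genotype difference was not tested. Summed B cell markers were at 65.7 CPM in CIS-null ex vivo replicate 1 and 6.22 CPM in replicate 2, against 21.1 and 16.2 CPM in wild-type ex vivo cells, and Igll1 and Rag1 were at 0 in all libraries. Their part in the result was not tested.

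Whether the genotype difference itself differed between the states was tested as an interaction. By edgeR 0 of the 36 passed, where 0.137% of all tested genes did, with 5 of the 36 at an unadjusted p under 0.05, beside 2586 of the 13184 tested genes, and a median of -0.32 (in vitro difference minus ex vivo difference, log2). By limma-voom 0 passed and by DESeq2 3 passed, Ttk, Cenpf and Kif2c, where DESeq2 called 4.49% of all tested genes. The edgeR values were -1.61 for Cenpf (SE 0.457, edgeR adjusted p = 0.135), -1.45 for Ttk (SE 0.394, edgeR adjusted p = 0.126) and -1.15 for Kif2c (SE 0.349, edgeR adjusted p = 0.148). For Ttk and Kif2c the value in each state has opposite signs, with 0.52 and 0.28 ex vivo. Without CIS-null ex vivo replicate 1, 11 of the 36 passed, all more negative in vitro, where 2.61% of all tested genes did, and without replicate 2, 0 passed and the median was 0.18. The difference between states was thus not shown for any of the 36 genes with all libraries in the edgeR fit.

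Other genes of the cell cycle were counted beside the 36. Of 83 other mitosis genes, 23 were lower (27.7%, beside 14.6% of all tested genes) and 2 higher in CIS-null in vitro cells, with a median log2 fold change of -0.24, and 22 and 2 with the length trend removed. The lowest p were those of Numa1, which focuses spindle poles, at -1.65 (SE 0.17, edgeR adjusted p = 0.00290), of the microtubule polymerase gene Ckap5 at -1.34 (SE 0.178, edgeR adjusted p = 0.00420), and of Incenp, the scaffold of the chromosomal passenger complex, at -1.10 (SE 0.153, edgeR adjusted p = 0.00473). Incenp lies between Ttk and Birc5 in length, at 3217 bases. The higher genes were 2 small subunits of the anaphase-promoting complex, Anapc10 at 0.38 and Cdc26 at 0.49, and Cdc26, of 794 bases, no longer passed with the length trend removed (edgeR adjusted p = 0.241). Ex vivo 0 of the 83 were called, with 6 at an unadjusted p under 0.05, beside 844 of the 13184 tested genes.

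Condensin and cohesin genes, which fold and hold sister chromatids, had 13 of 17 lower in CIS-null in vitro cells (76.5%, beside 14.6% of all tested genes) and 0 higher, with a median of -0.62. With the length trend removed 6 were lower, beside 10.3% of all tested genes. These are long genes, with a median of 4585 bases. Nipbl, the cohesin loader, was at -1.56 (SE 0.219, edgeR adjusted p = 0.00473), the condensin subunit Smc4 at -1.32 (SE 0.211, edgeR adjusted p = 0.00624) and the cohesin subunit Smc1a at -1.23 (SE 0.152, edgeR adjusted p = 0.00370). By culture in wild-type cells, 7 of 17 (41.2%) were higher in vitro than ex vivo, beside 32.1% of all tested genes, and 5 (29.4%) lower, beside 31.6%. S phase genes had 4 of 40 lower (10%, beside 14.6% of all tested genes) and 0 higher by genotype in vitro, with a median of 0.06. By culture in wild-type cells 33 of 40 were higher in vitro than ex vivo, beside 32.1% of all tested genes. The 4 were Clspn at -1.14, Pole at -0.92, Pola1 at -0.67 and Lig1 at -0.51, all of 3520 bases or longer. Of 16 genes for Cdk inhibitors, pocket proteins and related factors, 2 were higher (12.5%, beside 11% of all tested genes) and 3 lower (18.8%, beside 14.6%), shares near those of all genes. The Cdk inhibitor Cdkn2b averaged 34.3 CPM in CIS-null in vitro cells and 15.5 CPM in wild-type in vitro cells, a log2 value of 1.15 (SE 0.152, edgeR adjusted p = 0.00410). Cdkn1a, which encodes the inhibitor p21, averaged 140 CPM in CIS-null in vitro cells and 75.8 CPM in wild-type in vitro cells, at 0.88 (SE 0.140, edgeR adjusted p = 0.00612). The repressors E2f7 at -1.02 and E2f8 at -0.99 and the pocket protein gene Rbl2 at -0.64 were lower. Ex vivo 0 genes of these lists were called. Unadjusted p was under 0.05 for 0 of 17, 3 of 40 and 3 of 16, beside 844 of the 13184 tested genes.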

How the data were processed

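RNA of 8 NK cell libraries was sequenced, and the authors aligned reads with Subread and counted them over genes with featureCounts on GRCm38/mm10, per the submitters' processing notes; versions, strand and the treatment of shared reads are not given in the sources used here, so overlapping genes and near-identical copies are uncertain. The deposited matrix holds raw counts of 27179 genes with a gene length each. The authors also deposited log2 RPKM values per sample (limma, per the same notes), used for 1 alternative.

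Counts were fitted in R 4.3.3 with edgeR 4.0.16: filterByExpr by group (minimum count 10, minimum total 15), TMM scaling, 1 mean for each of the 4 groups, quasi-likelihood F tests, and Benjamini-Hochberg adjustment over 13184 genes at 0.05 (residual degrees of freedom 4, prior 4.45). Standard errors were taken as |log2 fold change| divided by the root of the F statistic. The length trend was a natural spline with 4 degrees of freedom of each library's log2 CPM deviation on log2 length, used as an offset. The scripts were tested on simulated data. Alternatives were other scalings and filters, DESeq2 1.42.0, limma-voom 3.58.1, the compared groups alone, a replicate block, the length trend removed and leaving out each library. The limma fit to log2 RPKM and the length trend estimated without the 36 genes were added after the data were seen. Values in every library were given for the 2 members of each role with the lowest p in vitro, and in the other lists up to 3 genes per direction with the lowest p were named; Lig1 and the pairs of like length were chosen after their values were seen. The members, roles and lists were chosen with earlier results of these data known. Promoter windows came from RefSeq on GRCm38.p6. The value of 1 marker gene is not reported here.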

Additional observations from a re-analysis of the deposited data

How the results depend on the processing

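The number of the 36 genes called for genotype in vitro, all lower, was 11 with all libraries, where 14.6% of all tested genes were lower. It was 17 by limma-voom and 19 with the compared groups alone, where 15.1% and 14% of all tested genes were lower. By limma on the deposited log2 RPKM values it was 1 of the 36, Cenpf, beside 8.58% of all genes tested in that fit. Leaving out 1 library at a time gave 0 to 21. The count stayed within 1.5 times, at 9 to 15, under the other scalings, filters, DESeq2, the replicate block and both versions of the length trend. In those fits 9.23% to 21% of all tested genes were lower. Library totals moved the median of all tested genes to -0.13, and the median of the 36 to -0.59. Ex vivo the count was 0 in every alternative except 4 without CIS-null ex vivo replicate 2, so leaving out 1 library gave 0 to 4. The interaction count was 0 except 3 by DESeq2 and, when libraries were left out, 0 to 11. Culture counts were 36 in wild-type cells under every alternative and 33 to 36 in CIS-null cells. The cause of these shifts was not tested. Among single genes in vitro, 0 turned direction with a call. Replicate numbers are shared by the groups, but the labels do not say that they pair samples, and the correlation of deviations between same-numbered libraries ran from -0.232 to 0.146. With a replicate block 10 genes were called in vitro, with Bub1b lost, 0 ex vivo and 0 in the interaction, and culture counts were 36 and 34. A library depth of 21.5 to 28.1 M counts limits the low genes most: Cdc25c, Cenpe and Ttk, among others, lay under 4 CPM in every ex vivo library.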
